A study of Mus musculus with 8 samples.

Results

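Cytoplasmic ribosomal protein genes were followed in mouse embryos, in tissue dorsal and ventral to the aorta. They were chosen by symbol alone: Rpl or Rps with a number (including short suffixes such as a, x and l1), the stalk genes Rplp0 to Rplp2, and Rpsa. Rows named as pseudogenes by a -ps suffix and the Rps6k kinases were left out. The rule found 67 genes among the 25429 rows of the table. By RefSeq biotype 62 of them are protein-coding and 5 are pseudogenes (Rpl6l, Rps12l1, Rps3a2, Rps3a3 and Rps4l). RefSeq holds 84 protein-coding genes whose symbols fit the rule, and 22 of these, among them Rpl11, Rpl38 and Rps27a, were not analysed here.

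Both groups came from C57Bl/6 embryos at embryonic day 12.5 (E12.5), and the labels name no mutation or treatment. The dorsal group is tissue from notochord to aortic roof and the ventral group is tissue beneath the vessel, each laser microdissected from frozen sections of the same embryos. Each group has 4 arrays (Affymetrix Gene 2.0 ST), numbered 1 to 4 as biological replicates, made from 200 to 1000 pg of amplified total RNA. Values are log2 RMA intensities and all differences are ventral minus dorsal on that scale. A replicate number, such as number 2, stands for the 2 arrays that share it. The labels do not say how many embryos went into an array or that a number is 1 embryo, so a p-value speaks only of the spread among these arrays, which may be technical.

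A ribosome joins a small subunit, which reads the mRNA, to a large subunit, which links the amino acids. Each subunit is an RNA core covered by ribosomal proteins, nearly all present in a single copy and made in matched amounts in every growing cell. Their mRNAs carry a terminal oligopyrimidine tract, a C followed by pyrimidines at the cap, through which mTOR signalling sets their translation. Ribosomal protein genes also left many processed pseudogenes in mammalian genomes, which bears on any probe meant for a single gene. Loss of a single copy of several of them impairs red cell production in Diamond-Blackfan anaemia.

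RefSeq promoter windows (GRCm38.p6, 250 bases before to 50 after each annotated start) were held for 50 of the 67 genes. A C at the annotated start followed by at least 4 pyrimidines, searched on the gene's strand only, was found in 8 of the 50 (16.0%), against 3.01% of all 27025 genes with such a window and 0 of 67 mitochondrial ribosomal protein genes. Within 10 bases to either side of the start it was found in 28 genes (56.0%), against 34.4% of all genes and 46.3% of the mitochondrial ribosomal set. The 8 genes with the tract at the start are shown because the tract is the sequence feature this gene class is known for. Each window holds 10 bases before the start and 20 from it, 5′ to 3′, with the start and the unbroken pyrimidine run in capitals.
Rpl14: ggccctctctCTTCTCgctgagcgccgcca
Rpl15: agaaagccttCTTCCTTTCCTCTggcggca
Rpl28: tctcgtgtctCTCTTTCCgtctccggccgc
Rpl32l: aaatgaccagCTTCTTCCTTggtgctgcct
Rpl35a: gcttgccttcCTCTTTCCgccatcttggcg
Rps15a: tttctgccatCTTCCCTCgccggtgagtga
Rps21: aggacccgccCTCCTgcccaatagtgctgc
Rps27: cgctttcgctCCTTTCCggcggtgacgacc
The window of Rps27 lies at chr3:90213629-90213658 on the minus strand and that of Rps21 at chr2:180257369-180257398 on the plus strand. Rpl15 lies at chr14:18270967-18270996 (minus), Rps15a at chr7:118116128-118116157 (minus), Rpl28 at chr7:4792955-4792984 (plus) and Rpl14 at chr9:120571507-120571536 (plus). Rpl35a lies at chr16:33056472-33056501 (plus) and Rpl32l at chr10:20208429-20208458 (plus). A start that RefSeq places a few bases from the cap would be missed by the first search. On the arrays these 8 genes were spread widely: Rpl28 and Rpl32l lay below the median of every array, and differences of the tested ones ran from -0.46 (Rpl35a) to 0.57 (Rpl14).

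The array values of these genes ran over nearly the whole scale of the arrays. The lowest mean over the 8 arrays was 2.16 for Rpl32l and the highest was 12.08 for Rps21, a small-subunit protein, while the median of all rows was 3.59 to 3.65 on every array. In all, 42 of the 67 genes stood above the array median on all 8 arrays, against 10184 of all 24675 named rows (41.3%). A further 9 stood below it on all 8. Those 9 were Rpl3l, Rpl9, Rpl10, Rpl10l, Rpl19, Rpl24, Rpl28, Rpl32l and Rps29. Rpl9, Rpl19, Rpl24, Rpl28 and Rps29 encode proteins of every cytoplasmic ribosome, so a low row here does not show that the mRNA was scarce. The number of probes behind each row is not given in the sources used here, and the order of the rows is not an order of mRNA abundance.

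**Figure D1:**
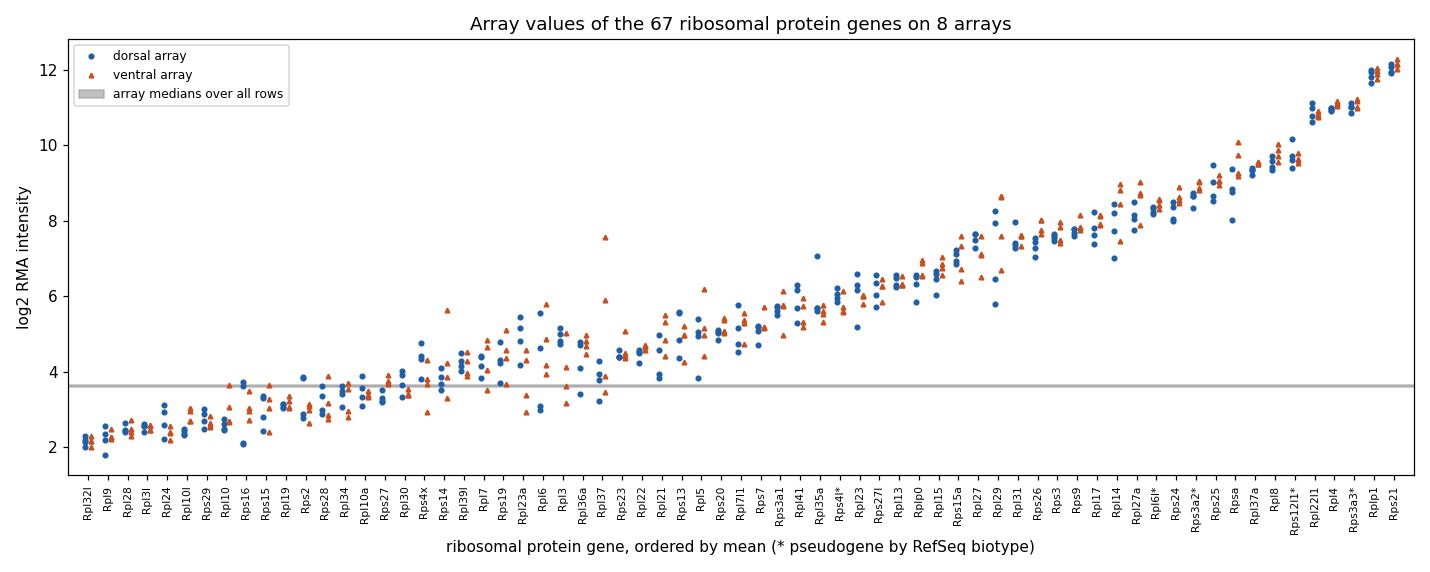
Log2 RMA intensity (vertical axis) of each of the 67 genes on the 4 dorsal and 4 ventral arrays, with genes ordered by their mean and pseudogenes marked by an asterisk. The grey band is the range of the array medians; 42 genes lie above the median on all 8 arrays, and the points of one gene lie closer together at the upper end of the scale than in the middle.

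Genes were tested if they exceeded the array median on at least 4 of the 8 arrays, which 51 of the 67 did, 46 of them protein-coding. Of these 51, 42 were above the median on all 8 arrays. Rps27 passed through its 4 ventral arrays alone, so a difference there was set by the filter. The other 16 were not tested: Rpl10a, Rpl30, Rpl34, Rps2, Rps15, Rps16 and Rps28 besides the 9 above. Each of them stayed at a mean of 3.73 or less in either tissue.

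No ribosomal protein gene passed the test between the tissues. In the limma fit blocked on replicate number, 0 of the 51 were called (Benjamini-Hochberg threshold of 0.05 over 12416 genes, of which 0% were called), and the smallest adjusted p among them was 0.292, for Rpl23a. With no replicate block it also called 0 of the 51, and 0.0322% of all genes tested. At an unadjusted p under 0.05, 7 were higher in ventral tissue, or 13.7% against 4.08% of all genes tested, and 3 were lower, or 5.88% against 4.18%. The 7 include Rps27, which passed the filter through its ventral arrays alone and gives no support. Of the 51 differences 37 were above 0, or 72.5%, where 49.2% of all genes tested were. Rows high on the scale leaned the same way whatever the gene: of all 282 tested genes with a mean of 9 or more, 63.1% were above 0 (median 0.07), beside 7 of 9 ribosomal genes (median 0.13). Below a mean of 9 it was 48.9% of all genes (median -0.0056) and 30 of 42 ribosomal genes (median 0.18). After quantile normalization of the deposited values, 50.7% of the 282 genes were above 0, and so were 36 of the 51 ribosomal genes (median 0.15). The median difference was 0.17 (quartiles -0.03 and 0.40), against -0.0039 over all genes tested. Among the 42 genes above the median on all 8 arrays the median difference was 0.16, with 5 higher and 0 lower at an unadjusted p under 0.05. The 3 lower genes, Rpl23a, Rpl3 and Rps4x, fell out of that set through ventral arrays below the median. Rps27 and Rpl6 fell out through dorsal ones. The 0 was thus set by the choice of genes.

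**Figure D2:**
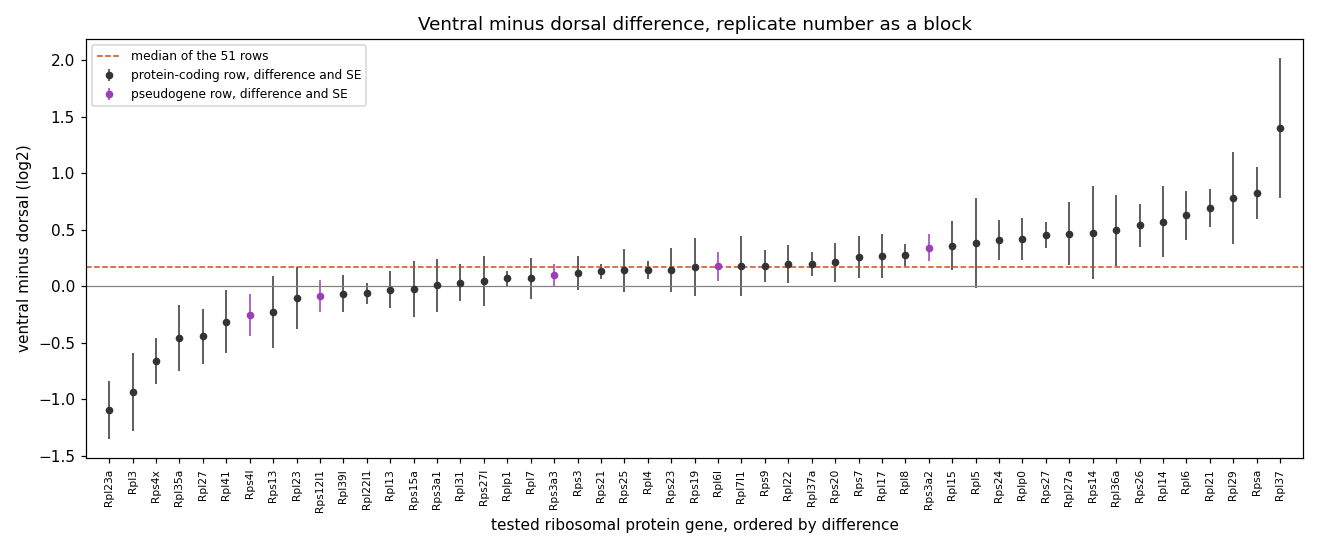
Ventral minus dorsal difference in log2 units (vertical axis) for each of the 51 tested genes, with bars of 1 SE from the blocked limma fit; the dashed line is their median. Differences run from -1.09 for Rpl23a to 1.40 for Rpl37, and 37 of the 51 lie above 0.

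The median difference was above 0 in each replicate number. It was 0.06 in number 1, 0.23 in number 2, 0.15 in number 3 and 0.13 in number 4, while over all genes tested it stayed between -0.03 and 0.02. In terms of single arrays, the median deviation of the 51 genes from their own means was -0.09, -0.11, -0.08 and 0.07 in dorsal replicates 1 to 4, and -0.03, 0.14, 0.01 and 0.10 in ventral replicates 1 to 4. Dorsal replicate 4 lay within the range of the ventral arrays. The same array carried high values of red cell and liver genes. The summed log2 value of 7 erythroid markers (of 10 listed) was 46.9 to 62.9 on the dorsal and 47.3 to 54.6 on the ventral arrays. That of 7 liver markers (of 8) was 26.7 to 57.4 and 26.0 to 44.2, with the highest dorsal sum in replicate 4 for both. Over the tested markers, 6 erythroid and 3 liver ones, ventral replicate 4 had the highest ventral mean. It was 8.50 for the erythroid genes, against 7.39 to 7.86 on the other ventral arrays, and 6.02 for the liver genes, against 4.28 to 4.75. Without dorsal replicate 4, in a fit without the block, the median difference of the ribosomal genes was 0.20. Over all fits with arrays left out it ran from 0.13 to 0.21. A link between these markers and the ribosomal values was not tested.

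**Figure D3:**
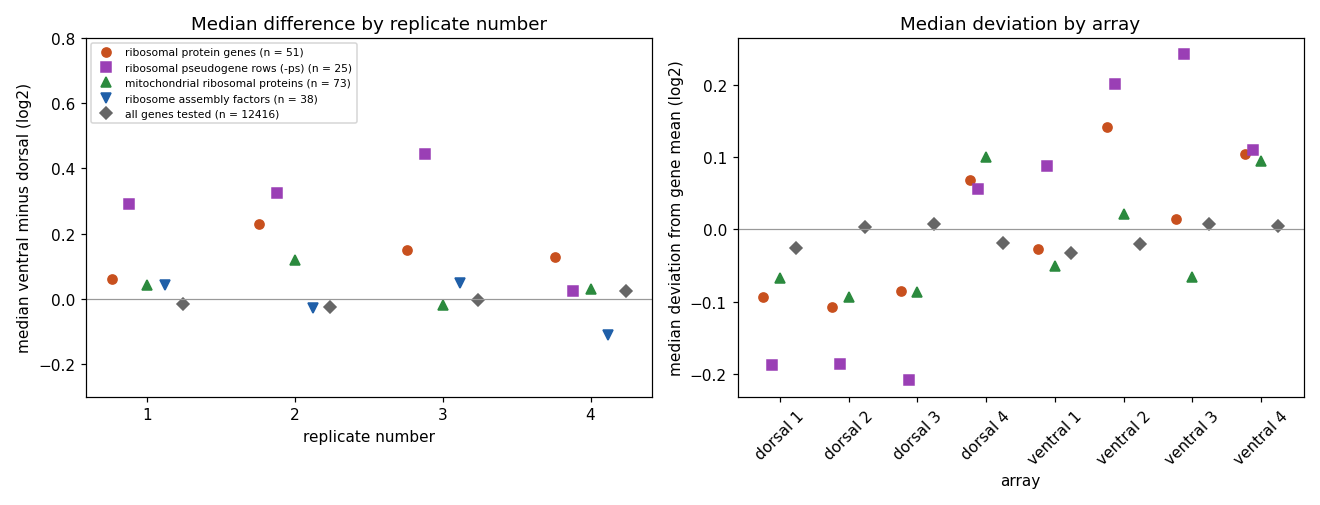
Left, median ventral minus dorsal difference (log2) in each replicate number for the ribosomal protein genes, the ribosomal pseudogene rows, mitochondrial ribosomal proteins, ribosome assembly factors and all genes tested. Right, median deviation of the genes from their own 8-array means on each array for 4 of these sets; for the ribosomal protein genes, dorsal replicates 1 to 3 lie between -0.11 and -0.08 and dorsal replicate 4 lies at 0.07.

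Among the small-subunit proteins the values with the smallest p belonged to Rps27, Rpsa, Rps4x and Rps26, where Rps27 had passed the filter through its ventral arrays alone. Rpsa, a protein of the small subunit that was first described as a laminin receptor, stood at 8.84, 8.01, 8.77 and 9.36 in dorsal replicates 1 to 4 and at 10.08, 9.19, 9.75 and 9.26 in ventral replicates 1 to 4. The ventral array was higher in numbers 1 to 3 and level with the dorsal one in number 4, and the groups overlapped through dorsal replicate 4. Its difference was 0.82 (SE 0.23), or 1.77-fold, with an unadjusted p = 0.00859 and an adjusted p of 0.377 in the limma fit. Without dorsal replicate 4 and without the block it was 1.03, and over all fits with arrays left out it ran from 0.58 to 1.13.

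Rps26, a small-subunit protein at the mRNA exit and a Diamond-Blackfan gene, stood at 7.27, 7.03, 7.55 and 7.44 in dorsal tissue and at 8.01, 8.03, 7.76 and 7.64 in ventral tissue. Every ventral array was above every dorsal one. The difference was 0.54 (SE 0.19, adjusted p = 0.512), or 1.46-fold. Rps27, a zinc-finger protein of the small subunit whose start window is shown above, stood at 3.19, 3.30, 3.23 and 3.52 in dorsal and 3.76, 3.69, 3.71 and 3.91 in ventral tissue. Its arrays lay just below and just above the array medians, and no fold is given for that reason (difference 0.46, SE 0.12, adjusted p = 0.324). Rps4x, the X-linked form of a small-subunit protein, went the other way, at 4.42, 3.81, 4.33 and 4.76 in dorsal and 3.81, 2.92, 4.32 and 3.66 in ventral tissue. It was lower in ventral tissue in 4 of 4 replicate numbers, with -0.01 in number 3 (difference -0.66, SE 0.20, adjusted p = 0.440). Without ventral replicate 2 and without the block its difference was -0.40.

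Of the 23 protein-coding small-subunit genes 18 were tested, with a median difference of 0.16. Of these, 15 were above 0, or 83.3% against 49.2% of all genes tested and 72.5% of all tested members. In the head of the small subunit, which holds the incoming tRNA and mRNA, 8 of the 14 genes listed had a row and 4 were tested (Rps3, Rps19, Rps20 and Rps25). Their differences ran from 0.12 for Rps3 to 0.22 for Rps20, and 0 of 4 had an unadjusted p under 0.05. Rps19, the gene most often mutated in Diamond-Blackfan anaemia, stood at 3.70, 4.31, 4.23 and 4.78 in dorsal and 4.37, 5.10, 3.67 and 4.59 in ventral tissue. The groups overlapped almost wholly, and the difference of 0.17 (SE 0.26) became -0.03 without replicate number 2. Rps21 held the top of the scale, at 12.07, 12.14, 11.94 and 11.92 in dorsal and 12.15, 12.29, 12.02 and 12.14 in ventral tissue. It was higher in ventral tissue in 4 of 4 replicate numbers, by 0.13 (SE 0.07, adjusted p = 0.673), and by 0.06 after quantile normalization.

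Of the 39 protein-coding large-subunit genes 28 were tested, with a median difference of 0.19. Of these, 19 were above 0, or 67.9% against 49.2% of all genes tested and 72.5% of all tested members. Rpl23a, which lines the rim of the exit tunnel where the new peptide leaves, had the smallest p of all members. It stood at 5.17, 4.17, 5.44 and 4.81 in dorsal replicates 1 to 4 and at 3.37, 2.94, 4.31 and 4.58 in ventral replicates 1 to 4. It was lower in ventral tissue in 4 of 4 replicate numbers, from -1.80 in number 1 to -0.23 in number 4, though the groups overlapped and ventral replicates 1 and 2 lay below the array medians (difference -1.09, SE 0.26, unadjusted p = 0.00364, adjusted p = 0.292 in limma). Rpl3, beside the peptidyl transferase centre, stood at 4.99, 4.81, 5.17 and 4.72 in dorsal and 3.62, 5.03, 3.18 and 4.13 in ventral tissue. Ventral replicate 2 was as high as the dorsal arrays, and the difference was -0.93 (SE 0.35, adjusted p = 0.535), or -0.58 without number 3. The other listed proteins of the tunnel rim that were tested, Rpl17 and Rpl31, differed by 0.27 (SE 0.20) and 0.03 (SE 0.17).

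Rpl21 stood at 3.82, 4.96, 3.93 and 4.57 in dorsal and at 4.41, 5.49, 4.83 and 5.33 in ventral tissue. It was higher in ventral tissue in each of the 4 numbers, by 0.53 to 0.90, while the groups overlapped because numbers 2 and 4 were high in both tissues (difference 0.70, SE 0.17, adjusted p = 0.297). Rpl6 had the same shape with a wider range, at 3.08, 4.63, 2.99 and 5.57 in dorsal and 3.95, 4.86, 4.18 and 5.80 in ventral tissue (difference 0.63, SE 0.21, adjusted p = 0.493). In fits with 1 array left out and no block, that difference ran from 0.26 without ventral replicate 4 to 1.13 without dorsal replicate 4. Rpl8, the seventh gene higher at an unadjusted p under 0.05 and named for that after its values were seen, differed by 0.28 (SE 0.10, adjusted p = 0.519), and by 0.16 after quantile normalization.

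Rpl37, a zinc-binding protein of the large subunit, had the widest difference and the widest spread. It stood at 3.93, 4.29, 3.22 and 3.77 in dorsal and at 7.57, 3.88, 3.47 and 5.90 in ventral tissue. Ventral replicates 1 and 4 were far above every other array, while ventral replicates 2 and 3 lay within the dorsal range. The difference of 1.40 (SE 0.62, adjusted p = 0.622) was 0.66 without replicate number 1. Rpl29 was next, at 7.93, 6.46, 5.79 and 8.26 in dorsal and 8.64, 8.65, 6.68 and 7.60 in ventral tissue, with overlapping groups and a difference of 0.78 (SE 0.41, adjusted p = 0.690). Rpl29 differed by 2.19 in number 2 and by -0.66 in number 4, and its difference was 0.31 without number 2 and 1.26 without number 4.

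**Figure D4:**
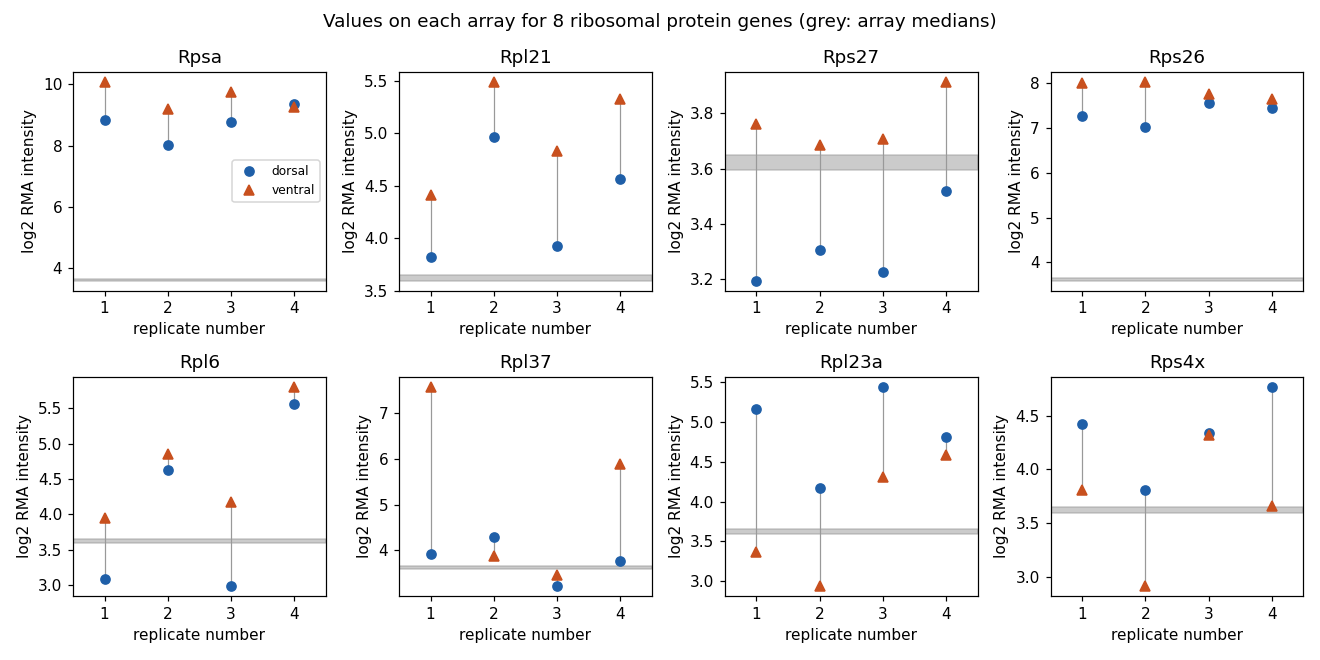
Log2 RMA intensity (vertical axis, a separate scale for each gene) of 8 ribosomal protein genes by replicate number, with circles for dorsal and triangles for ventral arrays joined by a line and the array medians as a grey band. Rpl21 and Rpl6 are higher in numbers 2 and 4 than in 1 and 3 in both tissues, and Rpl37 is high on ventral arrays 1 and 4 alone.

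The stalk proteins, which recruit elongation factors, had rows for 2 of 3 genes. Rplp0, the base of the stalk and a common reference gene in quantitative PCR, stood at 5.84, 6.33, 6.51 and 6.57 in dorsal and 6.53, 6.88, 6.96 and 6.56 in ventral tissue. It was higher in ventral tissue in 3 of 4 numbers and level in number 4 (difference 0.42, SE 0.18, adjusted p = 0.617). Rplp1 was among the steadiest rows, with a mean of 11.85 (SD 0.15, n = 4) dorsally and 11.92 (SD 0.12, n = 4) ventrally. The difference was 0.07 (SE 0.07). Rpl5, which with Rpl11 and 5S RNA binds the p53 regulator Mdm2, had values of 5.39, 5.05, 3.83 and 4.94 in dorsal and 4.41, 4.97, 5.17 and 6.19 in ventral tissue. Its difference ranged from -0.98 in number 1 to 1.34 in number 3, with a mean of 0.38 (SE 0.40), and the mean was 0.06 without number 3.

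Of 19 listed Diamond-Blackfan anaemia genes 13 had a row and 11 were tested. Of these 8 had a difference above 0, with a median of 0.26. That is 72.7%, against 49.2% of all genes tested and 72.5% of all tested members. At an unadjusted p under 0.05, Rps26 and Rps27 were higher, where 4.08% of all genes tested were, and Rps27 gives no support because it passed the filter through its ventral arrays alone. The lowest was Rpl35a at -0.46 (SE 0.29), where dorsal replicate 4 (7.05) stood far above the other dorsal arrays (5.61 to 5.70) and the ventral ones (5.31 to 5.77). Without replicate number 4 that difference was -0.10. Of 5 listed genes whose mouse mutants have skeletal, tail or pigment defects 4 had a row, and the 3 tested differed by 0.17 (Rps19), 0.22 (Rps20) and 0.26 (Rps7).

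All 7 listed paralogs had a row, and 5 were tested, with a median difference of -0.06 and none at an unadjusted p under 0.05. Rpl22l1, the paralog of Rpl22 with roles in T cell and blood progenitor development, stood at 10.77, 11.12, 10.99 and 10.62 in dorsal and 10.78, 10.91, 10.82 and 10.75 in ventral tissue, with no separation of the groups (difference -0.06, SE 0.09, and -0.14 after quantile normalization). Rpl22 itself stood at 4.23, 4.48, 4.58 and 4.53 in dorsal and 4.71, 4.68, 4.57 and 4.66 in ventral tissue (difference 0.20, SE 0.17). Rps27l, a p53 target, differed by 0.05 (SE 0.22), Rpl39l by -0.06 (SE 0.16), Rpl7l1 by 0.18 (SE 0.26) and the pseudogene Rps4l by -0.25 (SE 0.18). Rpl3l, the striated muscle form of Rpl3, stayed at 2.40 to 2.60, and Rpl10l, the male germ cell form of Rpl10, at 2.33 to 3.03. Both lay below the median of every array and were not tested; the ventral values of Rpl10l (2.68 to 3.03) were all above its dorsal ones (2.33 to 2.48).

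The spread between arrays differed widely from gene to gene. The SD within a tissue, pooled over both, had a median of 0.279 over the 51 genes and of 0.285 over all genes tested, and it ran from 0.05 to 1.38. Among genes with a mean between 3 and 5 the median SD was 0.52 for the 16 ribosomal genes and 0.27 for all 5908 tested genes in that range. Among those with a mean of 9 or more it was 0.14 for 9 ribosomal genes and 0.19 for all 282. These medians are descriptions without a test.

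The narrowest spread belonged to Rpl4, a large-subunit protein of the exit tunnel wall, at 10.93, 10.99, 11.00 and 10.90 in dorsal and 11.04, 11.08, 11.12 and 11.16 in ventral tissue. Every ventral array lay above every dorsal one although the difference was 0.15 (SE 0.08, adjusted p = 0.718). Rpl37a was as tight, at 9.34, 9.21, 9.35 and 9.40 against 9.49, 9.50, 9.55 and 9.55 (difference 0.20, SE 0.10, adjusted p = 0.702). After quantile normalization these differences were 0.09 for Rpl4 and 0.10 for Rpl37a. The moderated test draws each gene's variance towards that of other genes, and the SE of both is wider than their own spread alone would give. The rows of Rpl6l, Rps21 and Rps3a3 completed the 5 narrowest, and Rpl5, Rps14, Rpl6, Rpl29 and Rpl37 were the 5 widest. Rps14, a gene of the human 5q- syndrome, owed its spread to ventral replicate 2 (5.64, with 3.31 to 4.23 on the other ventral arrays), and its difference of 0.48 (SE 0.41) was -0.07 without replicate number 2.

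**Figure D5:**
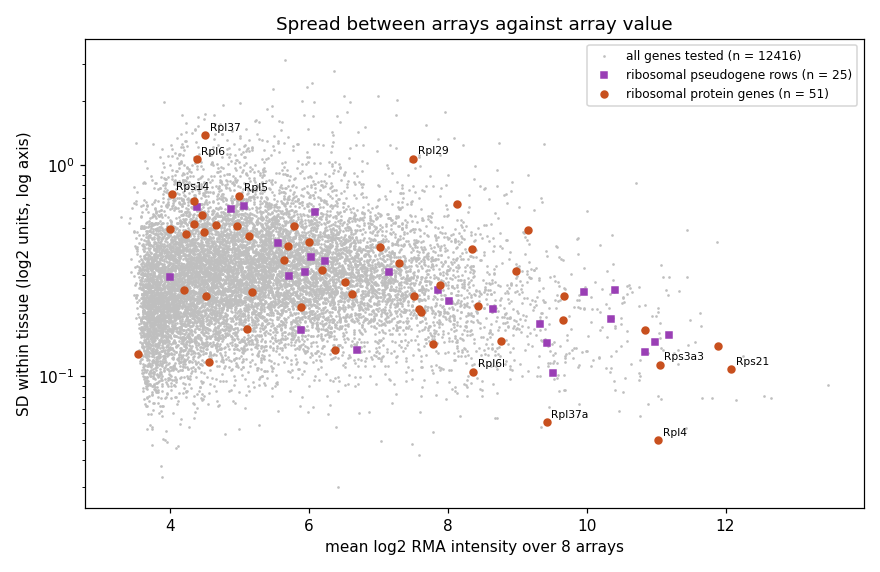
SD within tissue (vertical log axis, log2 units) against the mean of the 8 arrays for all genes tested (grey), the 51 ribosomal protein genes (circles) and the 25 tested ribosomal pseudogene rows (squares), with the 5 narrowest and 5 widest ribosomal genes named. The widest, Rpl37, has an SD of 1.38 and the narrowest, Rpl4, of 0.05.

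Rpl27, a listed Diamond-Blackfan gene, stood at 7.65, 7.26, 7.49 and 7.66 in dorsal and 6.50, 7.59, 7.12 and 7.09 in ventral tissue. It was lower in ventral tissue in all numbers but number 2 (difference -0.44, SE 0.24, adjusted p = 0.722). The tested genes not described one by one (Rpl7, Rpl13, Rpl14, Rpl15, Rpl23, Rpl27a, Rpl36a, Rpl41, Rps3a1, Rps9, Rps12l1, Rps13, Rps15a, Rps23 and Rps24, besides those given above) had differences from -0.31 (Rpl41) to 0.57 (Rpl14). Rps24 had the smallest p among them (0.41, SE 0.18, adjusted p = 0.603). The pseudogene Rps3a2 stood at 8.65, 8.34, 8.72 and 8.65 in dorsal and 8.87, 8.80, 9.05 and 9.02 in ventral tissue (difference 0.34, SE 0.12, adjusted p = 0.513). In all, every ventral array lay above every dorsal array for 5 of the 51 genes (Rpl4, Rpl37a, Rps3a2, Rps26 and Rps27), or 9.80% against 2.01% of all genes tested, and below for 0, against 2.38%. Rps27 is the gene that the filter itself obliged to differ. A total of 10 of the 51 genes, Rps27 among them, were higher in ventral tissue in 4 of 4 replicate numbers, a pattern seen in 7.93% of all genes tested. The 2 genes Rpl23a and Rps4x were lower in 4 of 4, seen in 8.46%.

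A few ribosomal genes had a low unadjusted p for the replicate number, and none was called for it. In the same limma fit, the term for replicate number had an unadjusted p under 0.05 for 6 of the 51 genes, or 11.8% against 6.02% of all genes tested, and it called 0% of all genes at an adjusted p under 0.05. This term was examined after the values had been seen. The smallest p belonged to Rpl6 (unadjusted p = 0.000465, adjusted p = 0.361), then Rpl21 (0.00714) and Rpl7 (0.0246). In both tissues Rpl6 and Rpl21 stood higher in numbers 2 and 4 than in 1 and 3. The other 3 were Rpl23a, Rpl29 and Rps4x.

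Rows named as ribosomal pseudogenes were left out by the rule and are given here for comparison. Of 39 such rows 25 were tested, and 23 of these had a difference above 0, against 49.2% of all genes tested, with a median of 0.26 (0.18 after quantile normalization). Of the 25, 9 have a mean of 9 or more, and all 9 were above 0, where 63.1% of all genes tested were. After quantile normalization all 9 were still above 0, against 50.7% of all genes tested in that range. Below a mean of 9, 14 of 16 were above 0, against 48.9% of all genes tested. At an unadjusted p under 0.05, 7 were higher, or 28.0% against 4.08% of all genes tested, and 0 were lower, against 4.18%, and limma called 0 at an adjusted p under 0.05. The 7 were 2 without replicate number 1 and 9 without replicate number 4. The median difference was 0.29, 0.32, 0.44 and 0.02 in replicate numbers 1 to 4. Rps19-ps4 had the smallest p, at 9.33, 9.17, 9.18 and 9.45 in dorsal and 9.81, 9.78, 9.67 and 9.75 in ventral tissue. Its groups did not overlap (difference 0.47, SE 0.11, unadjusted p = 0.00336, adjusted p = 0.287 in limma). Rps26-ps1 stood at 10.62, 10.92, 10.78 and 11.04 in dorsal and 11.00, 11.21, 11.13 and 11.19 in ventral tissue (difference 0.29, SE 0.08, adjusted p = 0.416).

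For 28 pseudogene rows, counting the members Rps3a2, Rps3a3 and Rpl6l, the table also held the row of the parent gene, 19 parents in all. The pseudogene member Rps4l, given above among the paralogs, was not paired with Rps4x in these counts (differences -0.25 and -0.66). Of the 28 copies 20 were above the array median on all 8 arrays, and for 10 of these 20 the parent was not. Rpl9 had a mean of 2.27, at percentile 6.58 of all rows, while Rpl9-ps6 had a mean of 10.40, at percentile 99.7. Rpl34 stood at 3.32 and Rpl34-ps2 at 10.84, and Rps2 at 3.15 with Rps2-ps5 at 5.89. The reverse, a parent above the median on all 8 arrays with a copy that was not, was seen for 4 copies. Where copy and parent were both tested, their differences had the same sign in 8 of 14 cases: Rps26 and Rps26-ps1 were both above 0 (0.54 and 0.29), while Rpl27 was at -0.44 and Rpl27-ps1 at 0.45. Whether such a row measures its own transcript, the parent's or both was not tested. These copies were named after their values were seen.

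Other lists of the ribosome pathway had medians nearer to 0. Of 76 mitochondrial ribosomal protein genes, which serve the separate ribosome of mitochondria, 73 were tested, with a median of 0.03. Of these, 43 were above 0, or 58.9% against 49.2% of all genes tested. At an unadjusted p under 0.05, 1 was higher (Mrpl17, 0.77, SE 0.31, adjusted p = 0.589) and 1 was lower (Mrpl51, -0.43, SE 0.17, adjusted p = 0.588). Each is 1.37% of those tested, where 4.08% of all genes tested were higher and 4.18% lower. Of 39 ribosome assembly factors 38 were tested, with a median of 0.05. Among them 1 was higher at an unadjusted p under 0.05, Gar1 of the pseudouridine-adding particle (0.46, SE 0.19, adjusted p = 0.589), and 1 was lower, Noc3l (-0.46, SE 0.18, adjusted p = 0.578). Each is 2.63% of the factors tested, against the same 4.08% and 4.18% of all genes tested. The difference between these medians and that of the ribosomal genes was not tested.

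RNA polymerase I subunits and cofactors, which make the large ribosomal RNAs, had a median of -0.03 over 11 tested genes, with none at an unadjusted p under 0.05. The smallest p-values there belonged to the subunit Polr1c (0.37, SE 0.20) and the initiation factor Rrn3 (0.30, SE 0.19). Other mRNAs with a terminal oligopyrimidine tract, such as those of elongation factors, had a median of 0.07 over 11 tested genes, also with none at that p. Of these, 8 were above 0, or 72.7% against 49.2% of all genes tested. Their smallest p belonged to Pabpc1 (-0.17, SE 0.12) and Eif3f (0.15, SE 0.13). Among 9 tested regulators of ribosome synthesis, with a median of 0.02, the translation repressor Eif4ebp1 stood at 5.74, 5.56, 5.87 and 5.79 in dorsal and 6.15, 6.61, 6.30 and 5.98 in ventral tissue. Its groups did not overlap (difference 0.52, SE 0.20, adjusted p = 0.565). Larp1, which binds oligopyrimidine tracts at the cap, followed with -0.24 (SE 0.15). Among 6 tested p53 targets, which rise when ribosome assembly fails, the median was -0.11 and 3 were above 0, against 49.2% of all genes tested. Trp53inp1 alone had an unadjusted p under 0.05 (-0.62, SE 0.25, adjusted p = 0.585), where 4.18% of all genes tested were lower at that p. Ccng1 followed (0.25, SE 0.17). Of the ribosomal proteins whose symbols the rule does not reach, Rpl36al was tested and differed by 0.09 (SE 0.18).

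The sclerotome and visceral mesenchyme lists separated the tissues, while the summed values of every other marker list overlapped between them. The summed log2 value of 10 sclerotome and cartilage genes was 60.1 to 69.7 on the dorsal and 47.6 to 50.8 on the ventral arrays, and that of 8 visceral mesenchyme genes was 33.6 to 36.2 and 37.7 to 48.2. Where 49.2% of all genes tested had a difference above 0, so did 10 of 10 macrophage genes, 7 of 7 smooth muscle genes, 7 of 8 sympathoadrenal genes and 6 of 8 endothelial genes. At an unadjusted p under 0.05, 3, 3, 2 and 1 of these were higher, where 4.08% of all genes tested were. Skeletal muscle genes were above 0 in 0 of 7 cases and neural progenitor genes in 1 of 4. At that p 2 and 1 were lower, where 4.18% of all genes tested were. The summed macrophage value was 42.9 to 48.7 on dorsal and 47.8 to 54.8 on ventral arrays. Of 9 proliferation genes, 3 had a difference above 0 (median -0.11), and Mki67 was at -0.61 (SE 0.16, adjusted p = 0.343). The part of these cell types in the ribosomal values was not tested. In bulk tissue, fewer cells of a type and less RNA per cell cannot be told apart.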

How the data were processed

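The deposited values are log2 intensities that the authors made with Affymetrix Expression Console and RMA, per the submitters' processing notes. Versions and the gene definition of the array are not given in the sources used here. RMA normalizes between arrays, so values show change relative to the rest of the array. The deposited array medians still run from 3.59 to 3.65, and quantile normalization was run as an alternative. Of 25429 rows named by Entrez number, the platform table gave 24675 a single symbol, and the other 754 were not used. Genes above the array median on at least 4 of 8 arrays were tested, 12416 in all (50.3% of named rows). Differences were fitted in R 4.3.3 by limma 3.58.1, with eBayes set to trend and robust. Replicate number entered as a fixed block because both tissues came from the same embryos. The moderated test was two-sided, with Benjamini-Hochberg adjustment and a threshold of 0.05. The number of arrays limits the precision.

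Members, gene lists and tests were chosen with earlier results of these data known. Members named with values were the 6 of smallest p in each direction, the 5 of widest and 5 of narrowest spread, the extremes of each role list, all paralogs, Rpsa, Rplp0, Rpl5, Rps19, Rps4x and Rpl22, and the 2 genes of smallest p in each other list of the ribosome pathway (marker lists are given as sums and counts). Others named were chosen after their values were seen. Alternatives covered pairing, filter, normalization, array weights, variance model and left-out arrays.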

Additional observations from a re-analysis of the deposited data

Results flagged for a closer look

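In 84 groups of 4 arrays (both tissues for each ribosomal gene chosen by the naming rule and 6 others, and for the median deviation of all tested members), 4 had a single array whose gap to its nearest neighbour took up nearly the whole range of the group. Chance gives about 1 in 20 groups. Rpl35a stood at 7.05 on dorsal replicate 4. Rps7 stood at 5.70 on ventral replicate 4, with the other ventral arrays at 5.15 to 5.19. Rpl31 stood at 7.33 on ventral replicate 1, with the other ventral arrays at 7.59 to 7.61. The median deviation of the ribosomal genes was 0.0691 on dorsal replicate 4, the array with the highest erythroid and liver sums. A link between that deviation and these sums was not tested.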

How the results depend on the processing

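Over 20 alternative settings, 0 ribosomal protein genes were called in any, and the smallest adjusted p among them ranged from 0.113 (without replicate number 4) to 0.643 (without replicate number 3). The median difference stayed above 0 in every setting, from 0.12 with no filter to 0.21 without ventral replicate 1 and without the block. The labels do not say that a replicate number is 1 embryo. Across genes, after each tissue mean was taken off, arrays that share a number had correlations of 0.02 to 0.12, against -0.13 to 0.10 for arrays that do not, so the pairing is not borne out by every pair. With no replicate block 4 genes of all those tested were called in place of 0, as with a random block (4), and the stricter filter gave 10. With arrays left out this count ran from 0 to 20. Ribosomal genes higher at an unadjusted p under 0.05 numbered 4 to 9 with arrays left out, and 5 with no replicate block. Lower ones numbered 0 to 3 with arrays left out. The 0 there came without dorsal replicate 3 or ventral replicate 1, both with no block. Lower ones also numbered 0 under the stricter filter (means above the 75th percentile of rows). Among genes above the median on all 8 arrays, a set chosen after the data were seen, they numbered 0 as well. Both sets leave out Rpl23a, Rpl3 and Rps4x, so neither 0 bears on these genes. The median spread was 0.24 under the stricter filter, 0.25 for genes above the median on all 8 arrays, 0.33 for protein-coding genes alone and 0.24 to 0.29 with a replicate number left out. The pseudogene rows had a median difference of 0.15 to 0.31 over the settings, and the count at an unadjusted p under 0.05 fell to 2 without replicate number 1. Of 39 tested genes for which alternatives were run, 8 turned direction with arrays left out. Rpl22l1 was 0.0202 without dorsal replicate 2, Rpl39l was 0.0266, 0.0290 and 0.00141 without dorsal replicate 1, ventral replicate 2 and ventral replicate 3, and Rps19 was -0.0127 and -0.0520 without dorsal replicate 1 and ventral replicate 2. Rps27l was -0.102 and -0.0345 without dorsal or ventral replicate 2. Rpl31 was -0.0419 and -0.0116 without dorsal replicates 1 and 3, and Rpl7 was -0.0502, -0.0612 and -0.121 without dorsal replicate 1 and ventral replicates 2 and 4. With both arrays of a number left out, Rps14, Rps19, Rps27l and Rpl31 were -0.0747, -0.0339, -0.186 and -0.0213 without number 2, Rpl7l1 and Rpl31 were -0.0979 and -0.0342 without number 3, and Rpl7 was -0.0533 without number 4. With a whole number left out, the highest values were 0.200 (Rpl7, number 1), 0.404 (Rpl7l1, number 2), 0.419 (Rps19, number 3), 0.167 (Rps27l, number 4) and 0.167 (Rpl31, number 4). Over all left-out arrays the ranges were -0.147 to 0.0202 (Rpl22l1), -0.184 to 0.0290 (Rpl39l), -0.0979 to 0.421 (Rpl7l1), -0.0747 to 0.813 (Rps14), -0.0520 to 0.427 (Rps19), -0.186 to 0.182 (Rps27l), -0.0419 to 0.186 (Rpl31) and -0.121 to 0.323 (Rpl7). The ranges of Rpl14 and Rpl41 were 0.158 to 0.894 and -0.634 to -0.0906. Quantile normalization moved 6 of the 39 by over 1.5 times, Rpl4, Rpl8, Rpl22l1, Rpl37a, Rps3a3 and Rps21, all with a mean of 9 or more, and turned none. The cause was not tested.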
